A study of Mus musculus with 4 samples.

Results

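The genes described here write, erase or read 5-methylcytosine, the methyl mark that vertebrate genomes carry mainly on the C of CpG dinucleotides. They are Dnmt1, Dnmt3a and Uhrf1 (writers and their cofactor), Tet2, Tet3 and Tdg (erasers), and Mbd1, Mbd2 and Mbd3 (methyl-CpG-binding domain proteins). They were chosen by name, with earlier results of these data known, and all 9 were found among the 23521 genes measured. RNA was sequenced from Hepa1-6 cells, a mouse hepatoma line, after lentiviral delivery of an shRNA. The Control group (n = 2) carried a scrambled shRNA and is labelled wild type, and the Chd1KD group (n = 2) carried an shRNA against Chd1, an ATP-dependent chromatin remodeler. Both groups were kept in 4 μg/ml puromycin for 3 weeks after transduction, so the Control cells share the virus and the selection. The labels give no shRNA sequence and do not say if replicate libraries are independent transductions. The p-values therefore reflect the spread among these 4 libraries alone, and that spread may be technical.

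DNMT1 copies methylation onto the new DNA strand after replication, guided by UHRF1, which recognises hemimethylated CpG. DNMT3A adds methylation at unmethylated sites. TET enzymes oxidise 5-methylcytosine, and TDG excises the oxidised bases so that base excision repair can restore an unmodified C. MBD1 and MBD2 bind methylated CpG and recruit corepressors. Mammalian MBD3 has the same domain but does not bind methylated CpG selectively. MBD2 and MBD3 are alternative subunits of the NuRD chromatin remodeling and deacetylase complex. The comparison asks whether the mRNAs of this system differ when Chd1 is lowered.

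Values are RPKM, read counts scaled by transcript length and by the mapped reads of the library, as the authors deposited them for each RefSeq transcript, summed here per gene. Sequencing depth is unknown. Summed RPKM was 459381 to 484490 per library, and 10161 to 10209 genes reached 1 RPKM. Chd1 itself was at 21.4 and 22.5 RPKM under the scrambled shRNA and at 10.4 and 11.3 under the Chd1 shRNA, a ratio of 0.49 (limma, adjusted p = 0.012). Of 8 hepatocyte and hepatoma markers, 6 were tested, Apoa1 averaged 0.147 RPKM and Ttr was listed at 0 in all 4 libraries. None of the 6 passed (limma), but 5 had an unadjusted p under 0.05, against 18.5% of all genes, with 1 higher and 4 lower in Chd1KD. Afp was higher (ratio 1.63, adjusted p = 0.077), and Hnf4a (0.78), Apob (0.72) and Trf (0.82) were among those lower. Alb stood at 18.6 RPKM in Control replicate 1 and at 42.2 to 55.6 RPKM in the other 3 libraries. The summed level of the 8 was 200.2 and 268 RPKM in Control, with Chd1KD inside that range at 219 and 251 RPKM. Their part in the results that follow was not tested. Of 17 matched markers of macrophages, endothelium and stellate cells or fibroblasts, all except Dcn (386 to 430 RPKM) averaged under 1 RPKM. In bulk RNA, fewer cells of a type and less RNA per cell cannot be told apart.

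Dnmt1, Dnmt3a and Uhrf1 each start transcription at more than 1 annotated place, and the transcript values below separate those starts. The 200 bases before 6 of the starts are therefore shown, 5′ to 3′ on the strand of the gene, with each CpG in capitals (RefSeq, GRCm38.p6, the assembly behind mm10).
Dnmt1, main start, chr9:20952980-20953179, minus strand: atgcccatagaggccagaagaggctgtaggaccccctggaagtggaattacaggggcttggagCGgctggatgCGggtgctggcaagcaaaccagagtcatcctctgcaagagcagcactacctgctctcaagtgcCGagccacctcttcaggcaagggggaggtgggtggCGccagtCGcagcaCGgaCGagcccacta
Dnmt1, distant upstream start, chr9:20959889-20960088, minus strand: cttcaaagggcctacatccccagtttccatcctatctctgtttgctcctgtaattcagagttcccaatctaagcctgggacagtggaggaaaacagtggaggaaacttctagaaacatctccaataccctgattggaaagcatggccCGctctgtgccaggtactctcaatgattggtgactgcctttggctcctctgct
Dnmt3a, long form start, chr12:3806780-3806979, plus strand: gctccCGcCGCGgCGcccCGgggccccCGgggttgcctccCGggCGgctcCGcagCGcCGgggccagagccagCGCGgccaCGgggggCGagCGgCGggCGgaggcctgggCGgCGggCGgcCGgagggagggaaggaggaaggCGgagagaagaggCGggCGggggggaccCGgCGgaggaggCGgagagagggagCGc
Dnmt3a, short form start, chr12:3891544-3891743, plus strand: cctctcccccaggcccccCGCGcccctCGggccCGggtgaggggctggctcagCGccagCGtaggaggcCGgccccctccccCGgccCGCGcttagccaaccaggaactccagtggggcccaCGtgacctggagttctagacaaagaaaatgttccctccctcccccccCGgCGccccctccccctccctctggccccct
Uhrf1, upstream start, chr17:56303137-56303336, plus strand: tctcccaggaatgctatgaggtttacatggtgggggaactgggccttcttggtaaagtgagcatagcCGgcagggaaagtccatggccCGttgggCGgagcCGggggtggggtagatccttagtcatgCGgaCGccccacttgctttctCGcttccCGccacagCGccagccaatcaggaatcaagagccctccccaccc
Uhrf1, downstream start, chr17:56304113-56304312, plus strand: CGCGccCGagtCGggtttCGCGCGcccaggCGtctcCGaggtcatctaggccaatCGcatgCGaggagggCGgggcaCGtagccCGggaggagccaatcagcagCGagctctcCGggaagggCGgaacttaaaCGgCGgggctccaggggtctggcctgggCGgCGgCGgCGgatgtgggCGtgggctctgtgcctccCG

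CpG density differed widely among these stretches. The long Dnmt3a start had 29 CpG in its 200 bases and the downstream Uhrf1 start 25. The short Dnmt3a start had 13, the upstream Uhrf1 start 9, the main Dnmt1 start 7 and its distant start 1. RefSeq windows from 250 bases before to 50 bases after a start were matched for 7 of the 9 genes, with 12 windows in all. These windows of 300 bases are longer than the stretches above, and over all 32851 of them the median was 7 CpG. The windows of the upstream Uhrf1 start and of the main Dnmt1 start had 12 CpG each. Those of the downstream Uhrf1 start and of another Dnmt1 start, at position 20952623, had 33 CpG each. The Tet2 window had 57 CpG, more than 99.8% of windows, and the windows of Mbd3, Tet3 and Tdg had 22, 22 and 26. The E2F-type motifs TTTCGCGC, TTTGGCGC, TTTCCCGC and TTTGCCGC were searched on both strands and occurred in 2.26% of all windows. Among the 12 windows, TTTCGCGC was in that of the downstream Uhrf1 start and in that of the Dnmt1 start at 20952623, which also held TTTGGCGC. On the minus strand this Dnmt1 start lies downstream of the main one, at 20952979, and its bases are not shown above. The other 10 windows held none of the 4 motifs. The CCAAT box, searched on both strands, was in 7 of the 12 windows, with both Uhrf1 windows among them, and in 37.4% of all windows. These are matches of letters, not evidence of binding.

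The 9 genes spanned a 19.6-fold range of mean RPKM, a scale that is corrected for transcript length. In Control the order was Mbd3, Dnmt1, Uhrf1, Mbd2, Mbd1, Tdg, Tet3, Tet2 and Dnmt3a. Of neighbours in this order, only Tet2 (4.91 ± 0.824 RPKM, SD, n = 2) and Dnmt3a (4.16 ± 0.386 RPKM) overlapped between libraries. The maintenance factors and the NuRD subunits Mbd2 and Mbd3 were above 50 RPKM in Control, and the de novo enzyme and the TET dioxygenases at under 10 RPKM. In Chd1KD, Mbd2 stood above Uhrf1, the reverse of Control, and the libraries of Mbd2 and Dnmt1 overlapped.

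**Figure D1:**
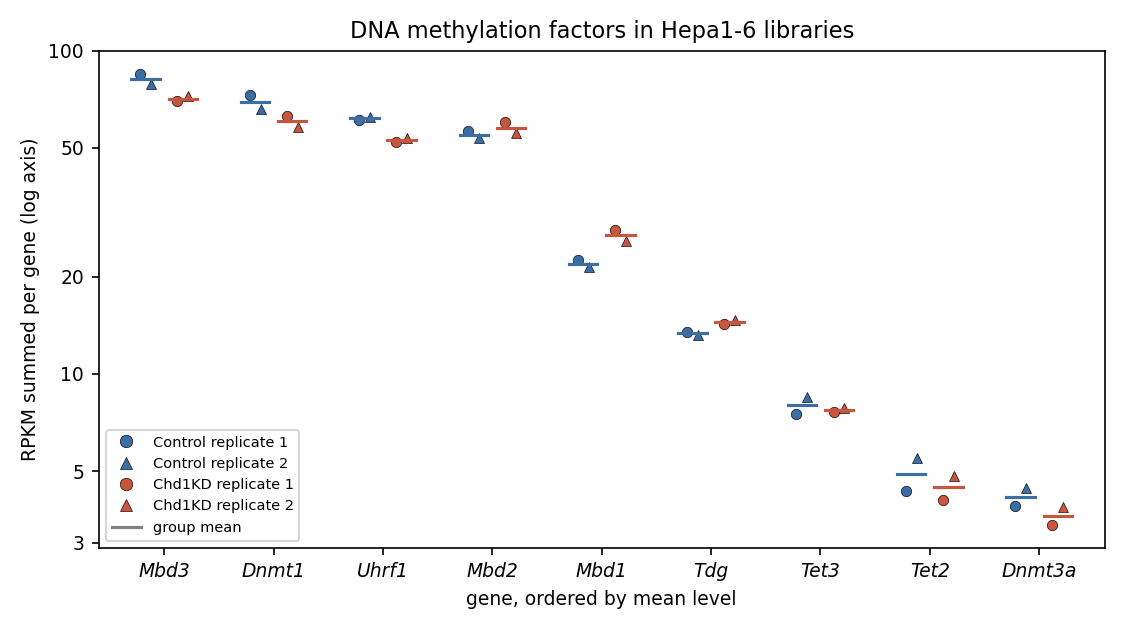
RPKM summed per gene (log axis) of the 9 DNA methylation factors in each library, with lines at the group means (n = 2 each). The Control and Chd1KD points separate without overlap for Mbd3, Dnmt1, Uhrf1, Mbd1, Tdg and Dnmt3a, by no more than a ratio of 1.22 of the group means.

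None of the 9 genes passed the test over all 10209 genes tested (limma on log2(RPKM + 1), adjusted p from 0.12 to 0.81), where 0.46% of genes passed (0.274% higher and 0.186% lower in Chd1KD). All 9 had cleared the filter of a mean of at least 1 RPKM. At an unadjusted p under 0.05 there were 4 of 9, against 18.5% of all genes. Of these, Dnmt1, Uhrf1 and Mbd3 were lower in Chd1KD (11.3% of all genes) and Mbd1 was higher (7.24% of all genes). The groups did not overlap for 6 of the 9, against 51.8% of all genes. Dnmt1, Dnmt3a, Uhrf1 and Mbd3 were the 4 lower ones (30.5% of all genes) and Mbd1 and Tdg the 2 higher ones (21.3% of all genes). The median log2 fold change was -0.11, against -0.02 over all genes tested, and it turned to 0.030 without Control replicate 2.

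**Figure D2:**
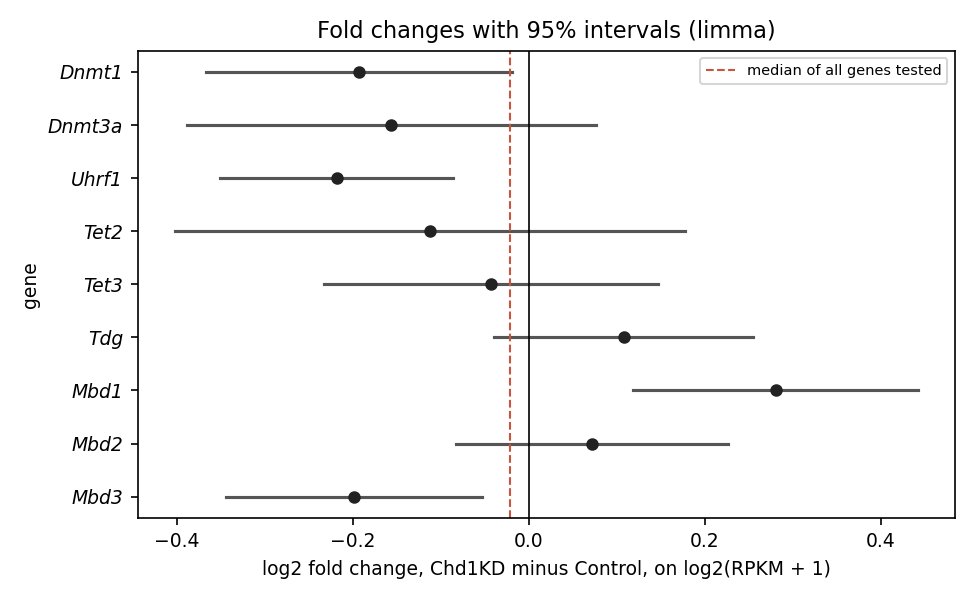
Log2 fold change (Chd1KD minus Control, on the log2(RPKM + 1) scale) of each gene with its 95% interval from limma, not adjusted over genes. The intervals of Dnmt1, Uhrf1 and Mbd3 lie below 0 and that of Mbd1 above 0, and the dashed line marks the median of all genes tested at -0.02.

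Among the writers and their cofactor, each of the 3 genes was lower in both Chd1KD libraries than in either Control library, with ratios of 0.86 to 0.87, and none passed the test. Over all genes, 30.5% were lower without overlap. Uhrf1 (chromosome 17, 56303337 to 56323486, mm10) gave Control values of 61.3 and 62.2 RPKM and Chd1KD values of 52.1 and 53.8 RPKM. The gap between the groups was several times the distance between libraries of a group. Its log2 fold change came to -0.22 (SE 0.06), with a 95% interval of -0.35 to -0.09 (limma, adjusted p = 0.13). Dnmt1 (chromosome 9, 20907206 to 20959888) had 73.0 and 66.0 RPKM in the Control libraries against 63.0 and 58.3 in the Chd1KD libraries. The lower Control library stood close to the higher Chd1KD library. The log2 fold change came to -0.19 (SE 0.07), with a 95% interval of -0.37 to -0.02 (limma, adjusted p = 0.23). Dnmt3a (chromosome 12, 3801559 to 3914443) was at 3.89 and 4.43 RPKM under the scrambled shRNA and at 3.40 and 3.87 under the Chd1 shRNA. The groups nearly touched, and the interval of its log2 fold change, -0.39 to 0.08, included 0 (limma, adjusted p = 0.42).

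The Uhrf1 transcripts from its upstream starts were lower in both Chd1KD libraries, the minor one only narrowly. Those from its downstream starts overlapped between the groups. The table of RefSeq transcripts held 4 Uhrf1 rows, and GENCODE M21 starts 2 of them at positions 56303321 and 56303400 and the other 2 at 56304313 and 56304348, 913 bases further in. NM_010931, the main transcript from the upstream start, gave Control values of 35.1 and 32.5 RPKM and Chd1KD values of 25.7 and 27.1 RPKM, a ratio of 0.78. Its log2 fold change of -0.35 (SE 0.07, interval -0.51 to -0.18) did not pass over the 11965 transcripts tested (limma, adjusted p = 0.22). NM_001111078, the main transcript from the downstream start, had 17.1 and 21.5 RPKM in the Control libraries against 21.1 and 18.5 in the Chd1KD libraries. Those groups overlapped, with a ratio of 1.02 and an interval of -0.28 to 0.36. NM_001111079, the minor upstream transcript, had 6.34 and 5.17 RPKM in Control against 3.08 and 5.07 in Chd1KD. These nearly touched, and the interval of its log2 fold change, -0.97 to 0.10, included 0 (limma, adjusted p = 0.41). NM_001111080, the minor downstream transcript, had 2.67 and 3.00 RPKM in Control against 2.23 and 3.08 in Chd1KD, which overlapped.

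Summed by start, Uhrf1 from the upstream start was at 41.5 and 37.7 RPKM under the scrambled shRNA and at 28.8 and 32.2 under the Chd1 shRNA, a ratio of 0.77 with no overlap. From the CpG-dense downstream start it gave Control values of 19.8 and 24.5 RPKM and Chd1KD values of 23.3 and 21.6 RPKM, a ratio of 1.01. The upstream start supplied 67.7% and 60.6% of Uhrf1 in the Control libraries and 55.3% and 59.8% in the Chd1KD libraries. Control replicate 2 and Chd1KD replicate 2 lay within 1 percentage point of each other in that share, although the groups did not overlap. The sums were formed after the transcript values were seen, and the difference between the starts was not tested. The transcripts share all other sequence except the first exon and 24 bases, coding for 8 residues, at the start of 1 internal exon (56313041 to 56313251 in the longer form). The split between them therefore rests on those stretches and on the authors' estimate. Transcripts with the longer exon made up 84.8% to 89.8% of Uhrf1 in the 4 libraries.

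**Figure D3:**
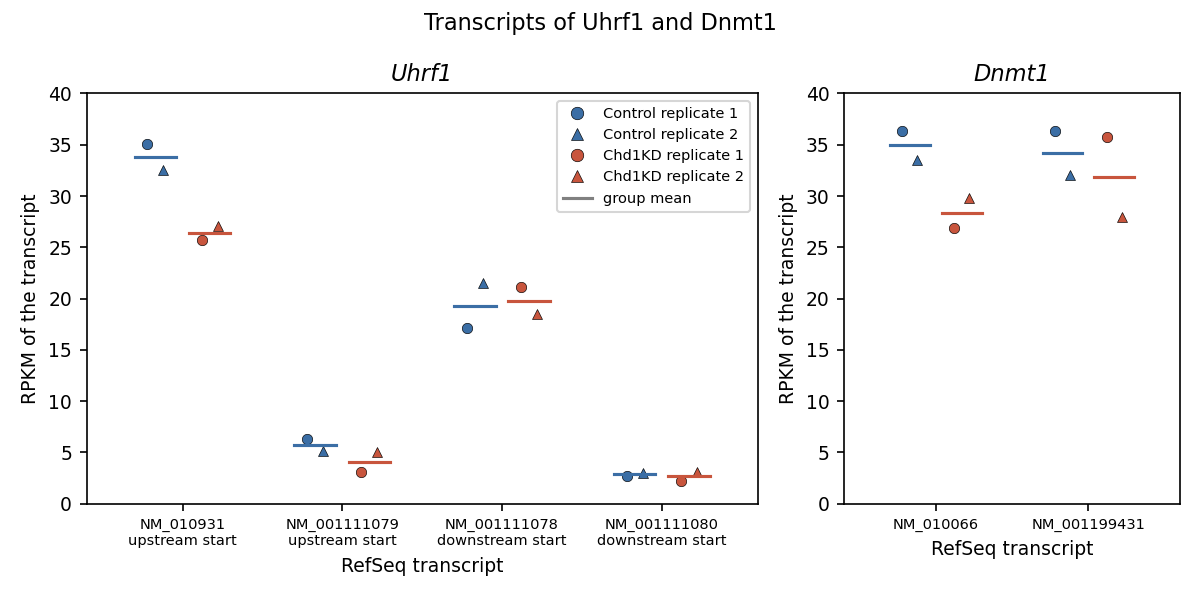
RPKM of each Uhrf1 transcript (left) and of the 2 abundant Dnmt1 transcripts (right) in every library, with lines at the group means. NM_010931 and NM_010066 are lower in both Chd1KD libraries, at ratios of 0.78 and 0.81, while NM_001111078 and NM_001199431 overlap between the groups.

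Dnmt1 transcription was nearly all assigned to the main start shown above. NM_010066 had 36.4 and 33.5 RPKM in the Control libraries against 26.8 and 29.8 in the Chd1KD libraries, and NM_001199431 measured 36.4 and 32.02 RPKM and then 35.8 and 28.0 RPKM. The first was lower in both Chd1KD libraries (ratio 0.81, limma, adjusted p = 0.24) and the second overlapped (ratio 0.93, adjusted p = 0.73). GENCODE M21 pairs both with the same transcript model, so the division between these transcripts is uncertain. NM_001199432, from the distant upstream start that gives the shorter form known from oocytes, was listed at 0 in all 4 libraries. NM_001199433, from the start that holds both E2F-type matches, stayed between 0.278 and 0.442 RPKM. The window with these matches (20952574 to 20952873) lies downstream of the main start at 20952979, beyond the window searched for that start. The low value therefore does not set the matches apart from the main start.

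Dnmt3a was nearly all the long form. NM_007872, which codes for 907 residues, made up 99.1% to 100% of Dnmt3a in each library. NM_153743, the short form of 688 residues known from embryonic stem and germ cells, was listed at 0 in both Control libraries and at 0.0038 and 0.034 RPKM in Chd1KD. An exact 0 in these values need not mean absence. Of the 18 transcript rows of the 9 genes, 13 averaged at least 1 RPKM and were tested, and none passed (limma), where 0% of all transcripts did. At an unadjusted p under 0.05 there were 4 of the 13, against 14.3% of all transcripts, with NM_010931, NM_010066 and the Mbd3 row lower (8.48% of all transcripts) and the Mbd1 row higher (5.85%). The groups of 7 of the 13 did not overlap, 5 lower and 2 higher in Chd1KD, against 48.7% of all transcripts (28.2% lower and 20.5% higher).

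Among the erasers, the TET dioxygenases overlapped between the groups. Tet2 (chromosome 3, 133463677 to 133545136) was at 4.33 and 5.49 RPKM under the scrambled shRNA and at 4.07 and 4.84 under the Chd1 shRNA. Tet3 (chromosome 6, 83362373 to 83457208) gave Control values of 7.53 and 8.50 RPKM and Chd1KD values of 7.64 and 7.84 RPKM. Both Tet3 values of Chd1KD lay inside the Control range. Their log2 fold changes were -0.11 (interval -0.40 to 0.18) and -0.04 (interval -0.23 to 0.15), with adjusted p of 0.65 and 0.81 (limma). Without Control replicate 2 they turned to 0.030 and 0.034. These intervals leave room for differences in either direction.

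Tdg, the glycosylase that acts after TET oxidation (chromosome 10, 82629814 to 82650799), was the only eraser whose groups did not overlap. It had 13.5 and 13.2 RPKM in the Control libraries against 14.3 and 14.6 in the Chd1KD libraries, a ratio of 1.08 (log2 fold change 0.11, interval -0.04 to 0.26, limma, adjusted p = 0.39). All but 0.042% of Tdg was assigned to NM_172552. Tdg overlaps the protein-coding gene Glt8d2 on the other strand, which averaged 0.035 RPKM. The strand setting of the authors' quantification is not given in the sources used here.

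Among the methyl-CpG-binding domain genes, Mbd1 was higher and Mbd3 lower in Chd1KD, and Mbd2 overlapped. Mbd1 (chromosome 18, 74267605 to 74282737), a repressor with several CXXC zinc fingers beside its methyl-CpG-binding domain, was at 22.5 and 21.4 RPKM under the scrambled shRNA and at 28.0 and 25.8 under the Chd1 shRNA. Both Chd1KD libraries stood above both Control libraries, averaging 26.9 ± 1.55 against 21.9 ± 0.812 RPKM (SD, n = 2 each) at a ratio of 1.22. The log2 fold change came to 0.28 (SE 0.07), with a 95% interval of 0.12 to 0.44 (limma, adjusted p = 0.12). It was the smallest adjusted p among the 9 genes. Mbd1 was represented by 1 transcript row, so its splice forms were not resolved.

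Mbd3 (chromosome 10, 80392539 to 80399531), the most abundant of the 9 genes, gave Control values of 84.6 and 78.9 RPKM and Chd1KD values of 69.9 and 72.2 RPKM. Its libraries did not overlap between the groups, which averaged 81.7 ± 4.02 and 71.0 ± 1.69 RPKM (SD, n = 2 each) at a ratio of 0.87 (log2 fold change -0.20, SE 0.06, interval -0.34 to -0.05, limma, adjusted p = 0.17). Mbd2 (chromosome 18, 70568225 to 70629134) had 56.4 and 53.5 RPKM in the Control libraries against 60.1 and 55.6 in the Chd1KD libraries. Its ratio was 1.05 with an interval of -0.08 to 0.23 on the log2 scale (limma, adjusted p = 0.58).

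The alternative NuRD subunits were also compared within each library. The level of Mbd2 divided by that of Mbd3 was 0.667 and 0.678 in Control and 0.860 and 0.770 in Chd1KD. Mbd1 divided by Dnmt1 was 0.308 and 0.324 in Control and 0.444 and 0.442 in Chd1KD. Both ratios were higher in both Chd1KD libraries. For Mbd1 over Dnmt1 this follows from the single genes, since Mbd1 was higher and Dnmt1 lower without overlap. For Mbd2 over Mbd3 the gap between the groups was about as wide as the distance between the Chd1KD libraries. Dnmt1 divided by Uhrf1, the maintenance enzyme over its guide, was 1.19 and 1.06 in Control and 1.21 and 1.08 in Chd1KD, so this ratio overlapped. The ratios were chosen after their values were seen and were not tested.

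Other genes of the system, listed by function, held no gene that passed the test (limma). Over all genes tested, 43.5% had positive fold changes, and the sign counts of the lists are to be read against that share. Of 8 tested writers and cofactors, 3 had positive fold changes, at a median log2 fold change of -0.16. An unadjusted p under 0.05 was found for 4 of the 8, each lower in Chd1KD, against 11.3% of all genes. Pcna, described below with the replication genes, is counted among these 4. Hells, a remodeler needed for maintenance methylation, was at 43.5 and 40.5 RPKM under the scrambled shRNA and at 33.6 and 36.1 under the Chd1 shRNA (ratio 0.83, adjusted p = 0.13). Cdca7, its partner, measured 38.9 and 36.3 RPKM and then 31.6 and 32.2 RPKM (ratio 0.85, adjusted p = 0.14). Both were lower in each Chd1KD library than in either Control library. Dnmt3b, the other de novo methyltransferase, stayed between 0.418 and 0.669 RPKM, and its cofactor Dnmt3l was listed at 0 in all libraries. Uhrf2, the paralog of Uhrf1, gave Control values of 41.1 and 42.6 RPKM and Chd1KD values of 41.5 and 43.2 RPKM. The last 3 were named after their values were seen.

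Uhrf1, Dnmt1, Hells and Cdca7 are known to be expressed with DNA replication genes in dividing cells. Pcna, the sliding clamp of the replication fork, had 246 and 225 RPKM in the Control libraries against 207 and 202 in the Chd1KD libraries, a ratio of 0.87. Mcm2 to Mcm7, the 6 subunits of the replicative helicase, summed to Control values of 601 and 560 RPKM against Chd1KD values of 475 and 480 RPKM. Each of the 6 was lower in both Chd1KD libraries than in either Control library, as were 30.5% of all genes, with ratios of 0.80 to 0.91 and a median of -0.29 on the log2 scale. Over all genes 0 of the 6 passed (limma), and 5 had an unadjusted p under 0.05, where 11.3% of all genes did and were lower. Pcna and the helicase genes were named with their values known, and their part in the Uhrf1 and Dnmt1 values was not tested.

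Of 13 tested genes of demethylation and base excision repair, 6 had positive and 7 negative fold changes (median -0.04), and 1 had an unadjusted p under 0.05 (18.5% of all genes). That gene was Gadd45g, a stress-inducible gene linked to repair-based demethylation, with Control values of 18.5 and 20.6 RPKM and Chd1KD values of 16.4 and 16.7 RPKM (limma, adjusted p = 0.18). Mbd4, a glycosylase with a methyl-CpG-binding domain, was at 3.42 and 3.40 RPKM under the scrambled shRNA and at 2.67 and 2.96 under the Chd1 shRNA (ratio 0.83, adjusted p = 0.27). Tet1, named after its values were seen, was listed at 0 in all 4 libraries. Of 10 other tested readers, 7 had positive fold changes (median 0.03) and none had an unadjusted p under 0.05 (limma). The smallest p values were those of the zinc finger reader Zbtb4 (ratio 1.11, adjusted p = 0.53) and of Mbd5 (ratio 1.18, adjusted p = 0.53).

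Among the 12 tested NuRD partners of Mbd2 and Mbd3, 4 had positive fold changes and the median was -0.04. An unadjusted p under 0.05 was found for 1 of the 12, fewer than the 18.5% of all genes (limma). Chd3, a NuRD ATPase, gave Control values of 60.6 and 64.6 RPKM and Chd1KD values of 50.7 and 52.5 RPKM (ratio 0.82, limma, adjusted p = 0.11). Mta1, a scaffold subunit, had a ratio of 0.91 (adjusted p = 0.35). The CXXC-domain proteins, which bind unmethylated CpG, had 7 tested genes with a median of -0.01 and members on both sides of it. At an unadjusted p under 0.05 were 3 of the 7 (18.5% of all genes), 1 higher and 2 lower, and 5 of the 7 did not overlap (51.8% of all genes). Kdm2b had 9.34 and 9.44 RPKM in the Control libraries against 11.03 and 11.43 in the Chd1KD libraries (ratio 1.20, adjusted p = 0.15). Cxxc1 had a ratio of 0.90 (adjusted p = 0.25). Among 11 tested genes of methyl donor supply and oxoglutarate balance the median was -0.05. An unadjusted p under 0.05 was found for 1 of the 11, fewer than the 18.5% of all genes (limma). Idh1 codes for an enzyme, among others, that makes oxoglutarate, which TET enzymes consume. Idh1 was at 40.3 and 46.4 RPKM under the scrambled shRNA and at 33.9 and 37.6 under the Chd1 shRNA (ratio 0.82, adjusted p = 0.18). Oxoglutarate itself was not measured. Ahcyl1 had a ratio of 1.09 (adjusted p = 0.29).

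**Figure D4:**
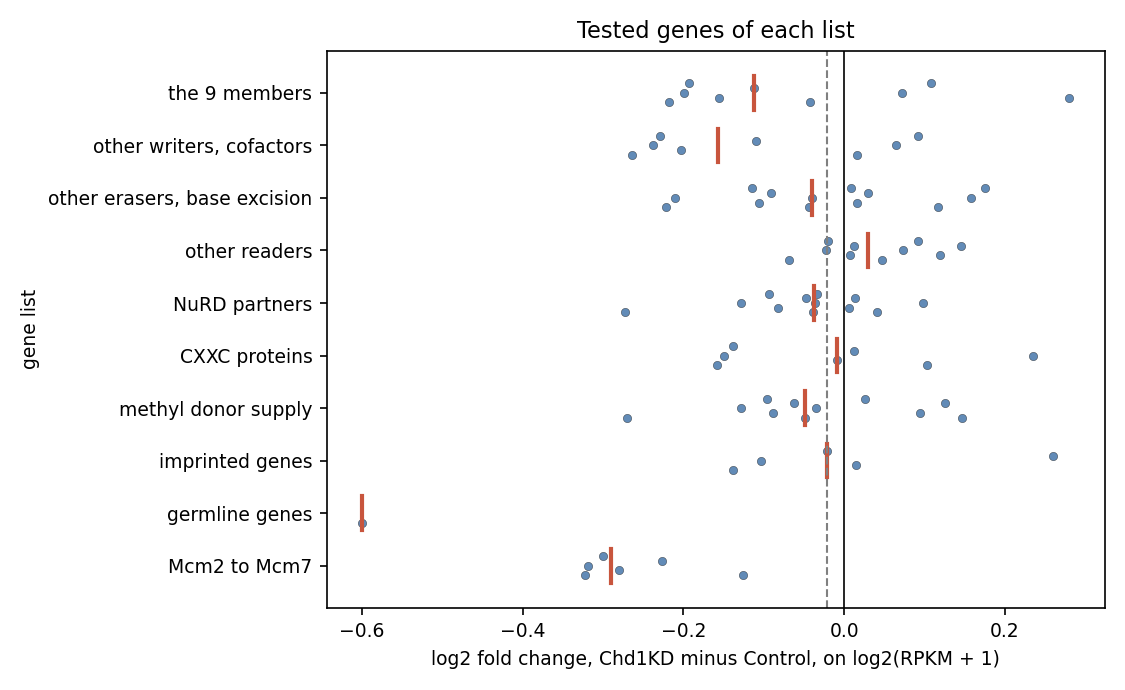
Log2 fold change of each tested gene by list, with the median of the list as a bar and the median of all genes tested (-0.02) as a dashed line. The other writers and cofactors have a median of -0.16, with 3 of 8 tested genes above 0, against 43.5% of all genes. Mcm2 to Mcm7, named with their values known, all lie below 0, with a median of -0.29. The germline list holds 1 tested gene, Rhox5, at -0.60.

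Most listed genes whose expression depends on DNA methylation averaged under 1 RPKM, but so did 13312 of all 23521 genes measured. Of those 23521 genes, 9738 were listed at 0 in all libraries. Of 18 germline genes known to be repressed by promoter methylation, 17 averaged under 1 RPKM and 15 were listed at 0 in all libraries. The exception was Rhox5, a homeobox gene on the X chromosome (37754608 to 37808878). It gave Control values of 165 and 142 RPKM and Chd1KD values of 108 and 94.0 RPKM, so every Chd1KD library was below every Control library. The ratio was 0.66 and the log2 fold change -0.60 (SE 0.10, interval -0.83 to -0.37, limma, adjusted p = 0.065). Rhox5 passed in 6 of 13 alternatives. Leaving out Control replicate 1 or 2 gave an adjusted p of 0.046 or 0.014, and leaving out Chd1KD replicate 1 gave 0.016. Leaving out Chd1KD replicate 2 gave 0.057, which did not pass. In those fits the lone library of a group is assumed to vary like the other group, and 49 to 236 genes passed in place of 47. Its log2 fold changes over the 13 were -0.71 to -0.49, and its adjusted p 0.0098 to 0.25.

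Of 19 matched imprinted genes, 5 were tested and 10 were listed at 0 in all libraries. Over all 23521 genes, 10209 were tested and 9738 were listed at 0. None of the 5 had an unadjusted p under 0.05, and their median log2 fold change was -0.02. Igf2r, a receptor that clears the growth factor IGF2, had 0.932 and 0.948 RPKM in the Control libraries against 1.47 and 1.18 in the Chd1KD libraries (limma, adjusted p = 0.29). Zrsr1, a splicing factor gene, had a ratio of 0.88 (adjusted p = 0.45). The groups did not overlap for 3 of the 5, against 51.8% of all genes. They were Igf2r, higher and near the filter of 1 RPKM, and Zrsr1 and Impact, both lower. Impact was named after its values were seen.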

How the data were processed

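Poly(A) RNA of 2 Control and 2 Chd1KD libraries was analysed from RPKM values that the authors deposited for 30582 RefSeq transcript rows, per the file headers. Cufflinks 1.3.0, TopHat 1.4.1 and mm10 are listed in the submitters' processing notes. Not given in the sources used here were annotation release, strand setting and filters. Each of the 4 tables of single libraries equalled its column in the series table. Groups came from the sample titles.

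Rows were named through NCBI GRCm38.p6 (30003 rows) or GENCODE M21 (180 rows), and RPKM was summed over the transcripts of a gene. The other 399 rows, with 0.304% of the RPKM, matched neither source. They kept their transcript name and were counted among the 23521 genes. Testing was limited to genes averaging 1 RPKM or more, with limma 3.58.1 (R 4.3.3) on log2(RPKM + 1), which understates the changes of low genes, with a variance trend and Benjamini-Hochberg adjustment. An adjusted p under 0.05 was a call. Intervals are 95% intervals of single genes. Transcript rows were tested in the same way. The fit was tested on simulated data. RPKM keeps no read counts. Of 376 transcripts low in every library, 8.24% to 10.4% shared the commonest ratio to Control replicate 1, so depth was not recovered.

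The members and gene lists were chosen with earlier results of these data known. All 9 members were named and, per list, any called gene or otherwise up to 2 genes of smallest p. For Uhrf1, Dnmt1, Dnmt3a and Tdg, each transcript averaging at least 1 RPKM was named too. Transcript structures are from GENCODE M21. Alternatives covered pseudocount, filter, scaling, variance model, replicate block, single libraries left out and the most abundant transcript. Python 3.11.15 and matplotlib 3.10.9 were used.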

Additional observations from a re-analysis of the deposited data

How the results depend on the processing

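None of the 9 genes passed the test in 12 of 13 alternatives, with 1 to 4 genes at an unadjusted p under 0.05 (limma). With the replicate number as a block, 1 gene passed (Mbd1, log2 fold change 0.28, adjusted p = 0.048), Chd3 and Idh1 passed too (adjusted p = 0.044 and 0.047), and the calls over all genes went from 47 to 325. The labels state no pairing, and same-numbered deviations correlated at 0.22 across genes. Over all genes the calls were 0 without a filter (2153 at an unadjusted p under 0.05), 71 with a mean of at least 5 RPKM, 6 without a variance trend, 92 with a robust trend and 12 with the most abundant transcript. They were 49 to 236 with 1 library left out, where the lone library is assumed to vary like the other group (140 without Control replicate 1, 236 without Control replicate 2 and 122 without Chd1KD replicate 2). The cause was not tested. Chd1 passed in each alternative except that without a filter (adjusted p = 0.25). No member transcript passed in any of the 12 alternatives (limma), with 1 to 4 at an unadjusted p under 0.05. The median log2 fold change of the members was -0.14 to 0.03 with 1 library left out, with the positive value, 0.030, arising without Control replicate 2. There Tet2 (0.030) and Tet3 (0.034) were reversed too, and with each library left out in turn Tet2 ran from -0.26 and Tet3 from -0.12. The median was -0.043 at a mean of at least 5 RPKM, where 7 of the 9 were left. The other 7 members kept their direction in every alternative that tested them, Uhrf1 from -0.35 to -0.20, Dnmt1 from -0.27 to -0.10, Dnmt3a from -0.23 to -0.08, Mbd3 from -0.25 to -0.15, Mbd1 from 0.22 to 0.34, Mbd2 from 0.02 to 0.13 and Tdg from 0.09 to 0.12. Depth is unknown, so counting error could not be given.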
